A study of Drosophila melanogaster and Drosophila simulans and Drosophila erecta with 10 samples.

Results

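The small RNA data of this series describe which microRNAs are present in the testes of 2 fruit fly species, Drosophila erecta and Drosophila sechellia. Both libraries came from wild-type flies, as adults of 3 to 5 days kept at 25 °C, and both were made from RNA of 18 to 30 nt cut from a gel. There was 1 library per species, 2 of the 10 libraries of the series. The other 8 are RNA-seq libraries of D. melanogaster and D. simulans from control and miR-983 knockout flies, and are not used here. All microRNAs listed in the tables of both libraries were taken, 78 in D. erecta and 72 in D. sechellia, each counted once per library. Names were matched after the species prefix was removed, which left 64 names in both tables, 14 in the D. erecta table only and 8 in the D. sechellia table only.

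MicroRNAs are short RNAs cut from hairpin transcripts by Drosha and Dicer and loaded into an Argonaute protein, which they guide to messenger RNAs that are then repressed. The bases next to the 5′ end, called the seed, do most of the target recognition, so microRNAs with the same seed form families. Several hairpins can lie in a single primary transcript, and either arm of a hairpin (5p or 3p) can yield the mature microRNA. The fly testis holds germ cells from stem cells to sperm, somatic cyst cells around them and a muscle sheath, all of which are dissected together. In such bulk tissue, fewer cells of a type and less RNA per cell cannot be told apart.

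Counted once each, the microRNAs of D. erecta held 2974235 reads and those of D. sechellia 2988430, so depth was close to equal. Levels are given as RPM (the share of these reads times 1000000), without division by length. With 1 library per species no test was made, and a difference between species cannot be told apart from a difference between libraries. The 95% intervals given (exact binomial for a share, exact conditional binomial for a ratio) cover counting error only. The testis label could not be checked against testis microRNAs, since 0 of 21 names of the young testis-enriched clusters (the miR-959, miR-972, miR-982 to miR-984 and miR-991 groups, miR-983 included) were listed in either table.

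A few microRNAs took most of the reads of the listed microRNAs in both libraries. Names that are not listed, such as those of the young testis-enriched clusters, enter neither the shares nor the ranks. These values therefore describe the listed microRNAs and not all microRNAs of the testis. miR-263a, known in D. melanogaster for protecting sensory bristle cells from cell death, was the most abundant in D. erecta, with 27.1% of reads (95% interval 27.0 to 27.1). In D. sechellia the first place went to miR-10, a microRNA encoded in the Antennapedia Hox gene complex, with 35.4% of reads (35.3 to 35.4). The 10 most abundant entries held 81.3% of reads in D. erecta against 84.7% in D. sechellia. It took 4 microRNAs to reach 50% of reads in D. erecta but 2 in D. sechellia, and 16 and 14 to reach 90%. By entries as listed, the D. sechellia library was thus the more concentrated, with an effective number of microRNAs (the exponential of the Shannon entropy) of 11.5 against 14.7. The D. erecta table splits some names that D. sechellia gives as a single entry, such as miR-311. Splitting by itself raises the effective number, and it was not recomputed with such entries put together.

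The same names filled the top places. With arms and lettered copies put together, 9 of the 10 names at the top were shared. miR-317 was in the top 10 in D. erecta only and miR-305 in D. sechellia only. miR-8, a member of the miR-200 family that acts on insulin signalling in the fly fat body, had rank 4 in both libraries, with 75010 RPM in D. erecta and 59893 RPM in D. sechellia. miR-184, required in the D. melanogaster female germline, stood at 64937 RPM for its 3p arm in D. erecta and at 74923 RPM, with no arm named, in D. sechellia. let-7, which times the change from larval to adult tissues, had 37190 RPM in D. erecta and 39382 RPM in D. sechellia. The growth-promoting bantam had 34273 RPM and 38352 RPM. Over the 56 shared names with reads in both libraries, the Spearman correlation of levels was 0.94 (Pearson's r of log2 RPM 0.93). The points of this correlation share their libraries, and it is a description only.

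**Figure D1:**
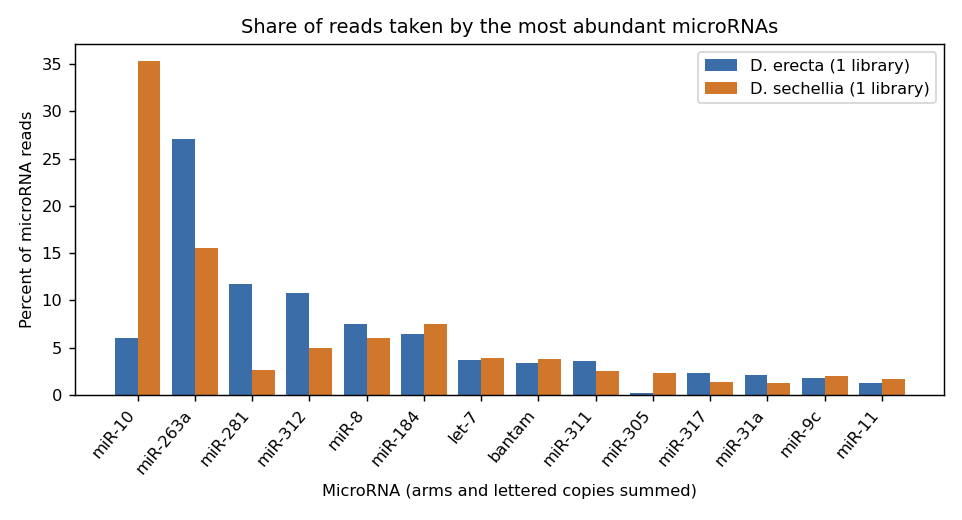
Percent of microRNA reads (vertical axis, starting at 0) taken by the 14 most abundant microRNAs in the D. erecta library (blue) and the D. sechellia library (orange), 1 library each, with arms and lettered copies summed. miR-10 has 35.4% of reads in D. sechellia against 5.98% in D. erecta, and miR-263a 27.1% in D. erecta against 15.6% in D. sechellia.

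The shift between species was carried by few microRNAs. In total 34.6% of reads would have to be reassigned to turn the composition of 1 library into that of the other, counted over 71 names with arms and lettered copies put together. miR-10 alone gained 29.4 percentage points in D. sechellia. The only other name to gain at least 1 point was miR-305, at 2.15 points. miR-263a had 11.5 points fewer in D. sechellia than in D. erecta, at 15.6% against 27.1%. Shares add up to a fixed total, so the gain of miR-10 by itself lowers the shares of all other names. How much of the lower share of miR-263a follows from this was not tested. miR-281 stood at 2.65% in D. sechellia against 11.7% in D. erecta, and miR-312 at 5.01% against 10.8%. miR-8 and miR-311 were the other names with at least 1 point less in D. sechellia.

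Because miR-10 and miR-263a hold so many reads, the ratios of all other microRNAs depend on them. Of the 64 shared names, 55 had at least 10 reads in 1 of the libraries and were compared by ratio. Their median log2 ratio of D. sechellia over D. erecta was -0.23, a ratio of 0.855, with 22 above and 33 below equality. With miR-10 and miR-263a left out of the sums, the median moved by 0.45 to 0.22, with 31 above and 22 below. Ratios near 1 therefore have no secure direction, and each ratio is best read against this median.

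**Figure D2:**
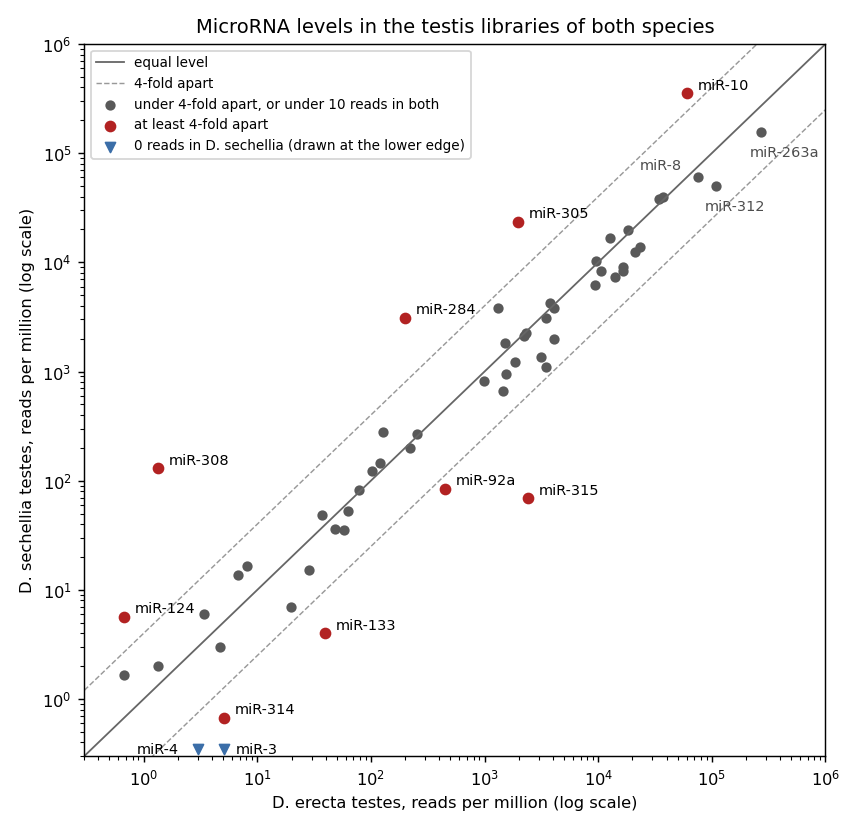
Level of each shared microRNA in D. erecta (horizontal axis) and D. sechellia (vertical axis), in RPM on log scales, with 1 library per species; the solid line marks equal levels and the dashed lines a 4-fold difference. Most points lie along the line over the whole range of levels, and miR-308, miR-284, miR-305, miR-124 and miR-10 lie above the upper dashed line.

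Of the 55 compared microRNAs, 20 (36.4%) were at least 2-fold apart, 9 (16.4%) higher and 11 (20.0%) lower in D. sechellia. At least 4-fold apart were 10 (18.2%), 5 (9.09%) in each direction. Among these 10, miR-308, miR-124, miR-314 and miR-3 reached the minimum of 10 reads in 1 library only. A rare name can pass that minimum through the library where it is higher, which favours large ratios among rare names. The 2-fold and 4-fold counts include such names. miR-307 also passed in 1 library only and was 1.56-fold apart. The median difference over all 55 was 1.68-fold. Counting intervals lay wholly beyond 4-fold for 7 of the 10. Among the 31 microRNAs with at least 1000 reads in both libraries 8 were at least 2-fold apart and 2 at least 4-fold apart, and among the 24 others these numbers were 12 and 8.

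Among the microRNAs higher in D. sechellia, miR-10 was the most abundant. It had 177972 reads in D. erecta and 1056900 reads in D. sechellia, 59838 RPM against 353664 RPM, a ratio of 5.91 (95% interval 5.88 to 5.94). It had rank 6 in D. erecta and rank 1 in D. sechellia. The tables do not name its arm in either species.

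miR-305, which acts on insulin and Notch signalling in intestinal stem cells of D. melanogaster, had 5896 reads in D. erecta and 70207 reads in D. sechellia. Its level was 1982 RPM against 23493 RPM, a ratio of 11.9 (11.5 to 12.2), and its rank was 32 in D. erecta and 10 in D. sechellia. miR-284, linked to glutamate receptor levels at the fly neuromuscular junction, had 590 reads against 9310. That is 198 RPM in D. erecta and 3115 RPM in D. sechellia, a ratio of 15.7 (14.4 to 17.1). Both microRNAs were thus among the 25 most abundant in D. sechellia, while in D. erecta they had ranks 32 and 46.

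The greatest ratio belonged to miR-308, of the K box family that pairs with the K box motif in target transcripts. It had 4 reads in D. erecta, 1.34 RPM, and 387 in D. sechellia, 129 RPM. The ratio was 96.3, with a wide interval (37.3 to 355) set by the 4 reads. miR-124, a marker of neurons, was near the floor in both testes, with 2 reads in D. erecta and 17 reads in D. sechellia, a ratio of 8.46 (2.01 to 75.5). These 5 microRNAs were at least 4-fold higher in D. sechellia under each of the 4 other ways of scaling or adding copies, except that miR-10 had no value where it was itself left out.

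On the other side stood miR-315, which in D. melanogaster raises Wingless signalling by repressing Axin and Notum. It had 7153 reads in D. erecta and 206 reads in D. sechellia, or 2405 RPM against 68.9 RPM, and was 34.9-fold lower in D. sechellia (30.4 to 40.3). miR-92a had 1328 reads against 252 and was 5.29-fold lower (4.62 to 6.08). miR-133, a muscle microRNA, had 118 reads in D. erecta and 12 reads in D. sechellia and was 9.88-fold lower (5.45 to 19.7). Among names matched with the arm suffix kept, the 4 other microRNAs at least 4-fold lower in D. sechellia had at most 447 RPM in D. erecta; the abundant miR-281 entries, matched only without it, are given further on.

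The last of these were close to the detection limit. miR-314 had 15 reads in D. erecta and 2 reads in D. sechellia, 7.54-fold lower with an interval from 1.75 to 67.9. miR-3 had 15 reads in D. erecta and 0 reads in D. sechellia, at least 5.02-fold lower when 3 reads are taken as the limit that a count of 0 allows (1.00 RPM). With miR-10 and miR-263a left out of the sums, miR-92a was under 4-fold apart, at a log2 ratio of -1.96, and the bound for miR-3 was a log2 ratio of -1.88, which does not show on which side of 4-fold it lies.

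**Figure D3:**
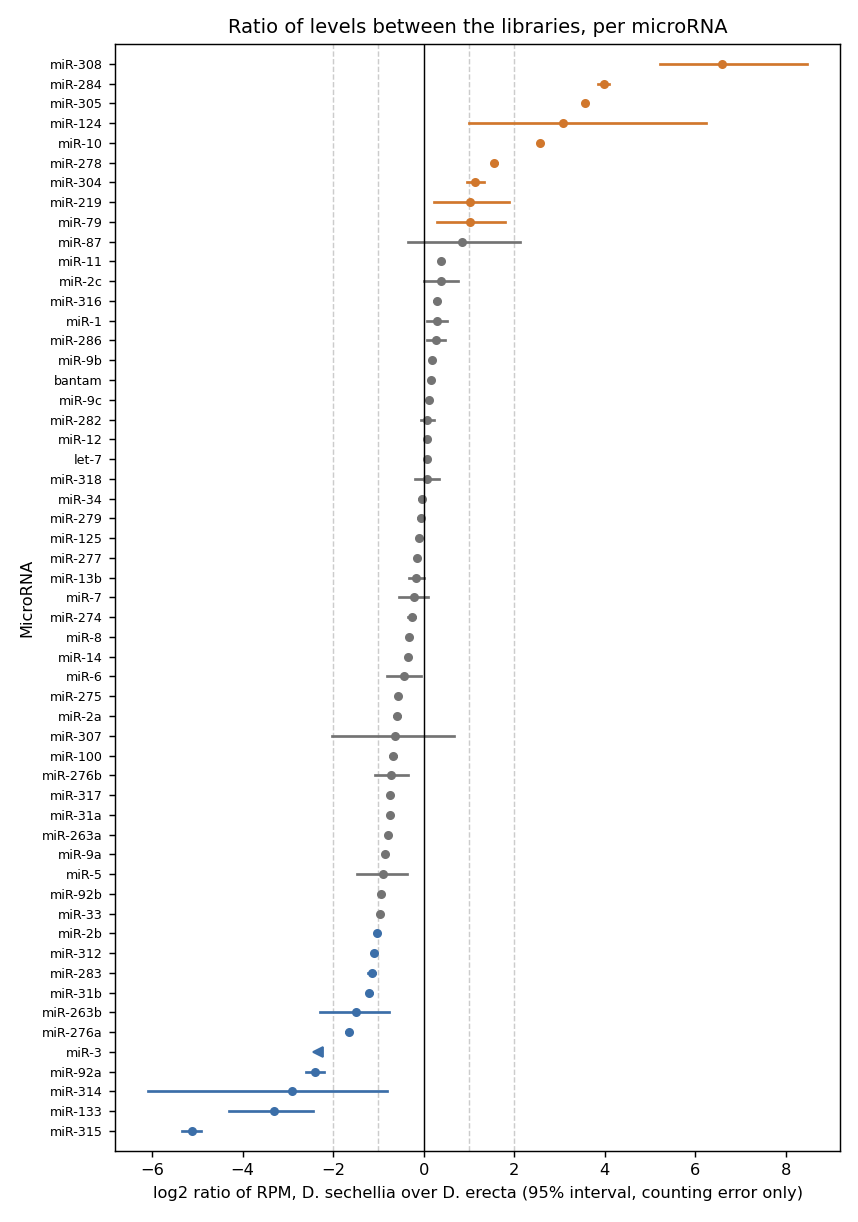
The log2 ratio of RPM in D. sechellia over D. erecta (horizontal axis) for the 55 compared microRNAs (vertical axis, in order of the ratio), with 95% intervals that cover counting error only; orange and blue mark microRNAs at least 2-fold higher or lower in D. sechellia, dashed lines 2-fold and 4-fold, and the triangle for miR-3 a bound. The ratios run from 34.9-fold lower for miR-315 to 96.3-fold higher for miR-308.

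Between 2-fold and 4-fold lay 10 microRNAs. miR-278, which affects insulin responses of the fly through the fat body, had 3881 reads in D. erecta and 11518 reads in D. sechellia, a ratio of 2.95 (2.85 to 3.06). miR-304 had 378 reads against 838, a ratio of 2.21 (1.95 to 2.50). miR-79 and miR-219 had under 50 reads in each library and ratios of 2.03 (1.22 to 3.46) and 2.04 (1.17 to 3.68). Of these 4 microRNAs, only miR-278 exceeded 1000 reads in both testes.

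Lower in D. sechellia in this range were miR-276a, miR-263b, miR-31b, miR-283, miR-312 and miR-2b. miR-276a, which tunes a dopamine receptor in fly olfactory memory, had 10228 reads in D. erecta and 3255 reads in D. sechellia and was 3.16-fold lower (3.03 to 3.29). miR-263b, which acts beside miR-263a in bristle cells, was rare, with 59 reads in D. erecta and 21 reads in D. sechellia, 2.82-fold lower (1.69 to 4.89). miR-31b had 9304 reads against 4075, 2.29-fold lower (2.21 to 2.38), and its relative miR-31a 62563 against 37355, 1.68-fold lower (1.66 to 1.70). The last 4 of the 6, miR-31b, miR-283, miR-312 and miR-2b, were under 2-fold apart in at least 1 other way of scaling, where they remained lower in D. sechellia.

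By RPM over all counted reads, several abundant microRNAs had nearly equal levels in both libraries. The 6 closest to equality with at least 1000 reads in both libraries were miR-34, let-7, miR-279, miR-12, miR-125 and miR-9c. miR-34, known for its role in the ageing fly brain, had 6890 reads in D. erecta and 6696 reads in D. sechellia, a ratio of 0.967 (0.935 to 1.00). let-7 had 110612 reads against 117690, a ratio of 1.06 (1.05 to 1.07). miR-279, which shapes the carbon dioxide sensing neurons of the fly, had 6549 and 6276 reads, a ratio of 0.954 (0.921 to 0.988). The ratio was 1.06 for miR-12, 0.926 for miR-125 and 1.09 for miR-9c. With miR-10 and miR-263a left out of the sums these 6 ratios lay between 1.26 and 1.48, and those of miR-34, miR-279 and miR-125 crossed 1.

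Among the other abundant microRNAs, miR-263a had 805435 reads in D. erecta and 465746 reads in D. sechellia, a ratio of 0.576 (0.573 to 0.578). That ratio depends on the reads of miR-10 in the sums, and no setting left out miR-10 alone. miR-33, encoded in the gene of the lipid regulator SREBP, had 16420 RPM in D. erecta and 8355 RPM in D. sechellia. miR-9a, which limits the number of sensory organ precursors, had 16514 RPM against 9100 RPM. miR-14, which restrains cell death and fat storage, had 10664 RPM against 8370 RPM, and miR-8 and miR-14 crossed 1 when miR-10 and miR-263a were left out. The 7 compared microRNAs outside the lists and ranks used here (miR-219, miR-274, miR-282, miR-307, miR-316, miR-33 and miR-87) had log2 ratios between -0.97 and 1.03.

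The miR-310 cluster, which in D. melanogaster holds miR-310 to miR-313 and buffers Hedgehog signalling in the ovary, had different members in the tables. In D. erecta the table lists miR-310a, miR-310b, miR-311a, miR-311b, miR-311c and miR-312, and in D. sechellia miR-310, miR-311, miR-312 and miR-313. All D. erecta members together took 14.4% of reads, and all D. sechellia members 7.69%, so the cluster was 1.87-fold lower in D. sechellia (1.86 to 1.88). miR-312 led it in both, with 320573 reads in D. erecta and 149808 reads in D. sechellia, 2.15-fold lower (2.14 to 2.16). D. erecta lists it under 2 precursors with the same count, and with the counts of copies summed its log2 ratio was -1.95 in place of -1.10.

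The lettered copies differed widely among themselves. miR-311a had 78576 reads in D. erecta, miR-311b had 21963 and miR-311c had 5850, against 76867 for the only miR-311 of D. sechellia. Summed, the 3 D. erecta entries were 1.39-fold above D. sechellia (1.38 to 1.40). miR-310a and miR-310b had 614 and 643 reads in D. erecta, and miR-310 had 2862 in D. sechellia, 2.27-fold above their sum (2.12 to 2.42). The same count is listed for miR-100 in D. sechellia, so this ratio is uncertain beyond its interval. miR-313, with 330 reads, was listed in D. sechellia only. These members are close copies, and it is not stated how reads that match several of them were assigned.

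The miR-92 family has the same seed as the miR-310 cluster. miR-92b had 41465 reads in D. erecta and 21767 reads in D. sechellia, 1.91-fold lower (1.88 to 1.95), and miR-92a was 5.29-fold lower as given above. Cluster and family together had 15.8% of reads in D. erecta (95% interval 15.8 to 15.9) against 8.43% in D. sechellia (8.40 to 8.46). The cluster and the family were each lower in D. sechellia under every scaling used, at ratios from 0.331 to 0.729 and from 0.512 to 0.699.

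Where the D. erecta table lists both arms of a hairpin, a single arm held nearly all reads. miR-184 had 193138 reads on the 3p arm and 25 on the 5p arm. For miR-306 the 5p arm had 11415 reads and the 3p arm 10. miR-iab-4, encoded in the bithorax Hox complex, where it represses Ultrabithorax, had 62 reads on the 5p arm and 0 on the 3p arm. The D. sechellia table names no arm. Its single entries stood at 223903 reads for miR-184, 13773 for miR-306 and 29 for miR-iab-4. Against the summed D. erecta arms these gave ratios of 1.15 (1.15 to 1.16) for miR-184, 1.20 (1.17 to 1.23) for miR-306 and 0.466 (0.289 to 0.735) for miR-iab-4.

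miR-281 had its leading entry at rank 2 in D. erecta and at rank 8 in D. sechellia. Its genes come as a pair, miR-281-1 and miR-281-2. In D. erecta miR-281-2-5p had 338634 reads, miR-281-1-5p had 7921 and the 3p arm that both hairpins share had 1662. In D. sechellia the entry miR-281-2 had 77743 reads and miR-281-1 had 1413, without an arm. The miR-281-2 entry exceeded the miR-281-1 entry 42.8-fold in D. erecta (41.8 to 43.7) and 55.0-fold in D. sechellia (52.2 to 58.0). With the arm suffix ignored, miR-281-2 was 4.38-fold lower in D. sechellia (4.34 to 4.41) and miR-281-1 was 5.63-fold lower (5.32 to 5.96). If the D. sechellia entries are not the 5p arms, these ratios compare different molecules.

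MicroRNA genes that neighbour each other in D. melanogaster (assembly Release 6 plus ISO1 MT, within 10 kb) are often cut from the same primary transcript. Of the 55 compared microRNAs, 54 could be matched by name to that annotation, and 24 fell into 9 groups with 22 neighbouring pairs. The log2 ratios of the members of a pair differed by a median of 0.80, against 1.10 over all 1485 pairs. In 3 of the 22 pairs (13.6%) the ratios were at least 4-fold apart, against 31.8% of all pairs. miR-3 entered both counts as a bound. Its gaps to miR-5 (2.68-fold) and miR-6 (3.72-fold) are lowest values, so the 3 pairs are a minimum. The 1485 pairs also include microRNAs that belong to no group, among them those with the most extreme ratios, miR-308 (96.3-fold higher) and miR-315 (34.9-fold lower). Such names widen the gaps over all pairs and cannot enter a neighbouring pair. Pairs of the 24 grouped microRNAs alone were not used as the comparison, so no closeness of neighbours can be read from these values. Gene order in D. erecta and D. sechellia themselves was not used here.

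miR-275 and miR-305 were the pair with the greatest gap. miR-275 had 27596 reads in D. erecta and 18631 reads in D. sechellia, a ratio of 0.672 (0.660 to 0.685), while miR-305 was 11.9-fold higher. Within D. erecta miR-275 exceeded miR-305 4.68-fold (4.55 to 4.81), and within D. sechellia miR-305 exceeded miR-275 3.77-fold (3.71 to 3.83). These comparisons are made inside a library and do not depend on scaling. The ratios of the pair differed 17.6-fold.

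miR-12, miR-283 and miR-304 form another group with unlike ratios. miR-12 had 28679 reads in D. erecta and 30534 reads in D. sechellia, a ratio of 1.06 (1.45 without miR-10 and miR-263a in the sums). miR-283 had 4340 and 1962 reads, 2.22-fold lower in D. sechellia (2.11 to 2.35), whereas miR-304 was 2.21-fold higher. miR-283 thus exceeded miR-304 11.5-fold in D. erecta (10.3 to 12.8) and 2.34-fold in D. sechellia (2.16 to 2.54). As a sum the group had 11229 RPM and 11154 RPM.

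In the miR-309 cluster, the ratio of miR-286 exceeded that of miR-3 at least 6.07-fold, and those of miR-5 and miR-6 differed 1.39-fold. The ratios of miR-92a and miR-92b differed 2.77-fold. Within the miR-277, let-7 and miR-9 groups, the ratios of every pair were under 2-fold apart. miR-277, which acts on the breakdown of branched-chain amino acids, had a ratio of 0.899 (0.874 to 0.925; 1.23 without miR-10 and miR-263a in the sums), miR-34 of 0.967 and miR-317 of 0.597 (0.589 to 0.604). In the let-7 complex, let-7 exceeded miR-100 24.2-fold in D. erecta and 41.1-fold in D. sechellia, as miR-100 had 4564 and 2862 reads. The 2862 reads are uncertain, since miR-310 carries the same count in D. sechellia. miR-9b (11133 and 12740 reads) and miR-9c (54478 and 59452 reads) had ratios of 1.14 and 1.09. Their neighbour miR-79 was rare, with 24 reads in D. erecta and 49 reads in D. sechellia.

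**Figure D4:**
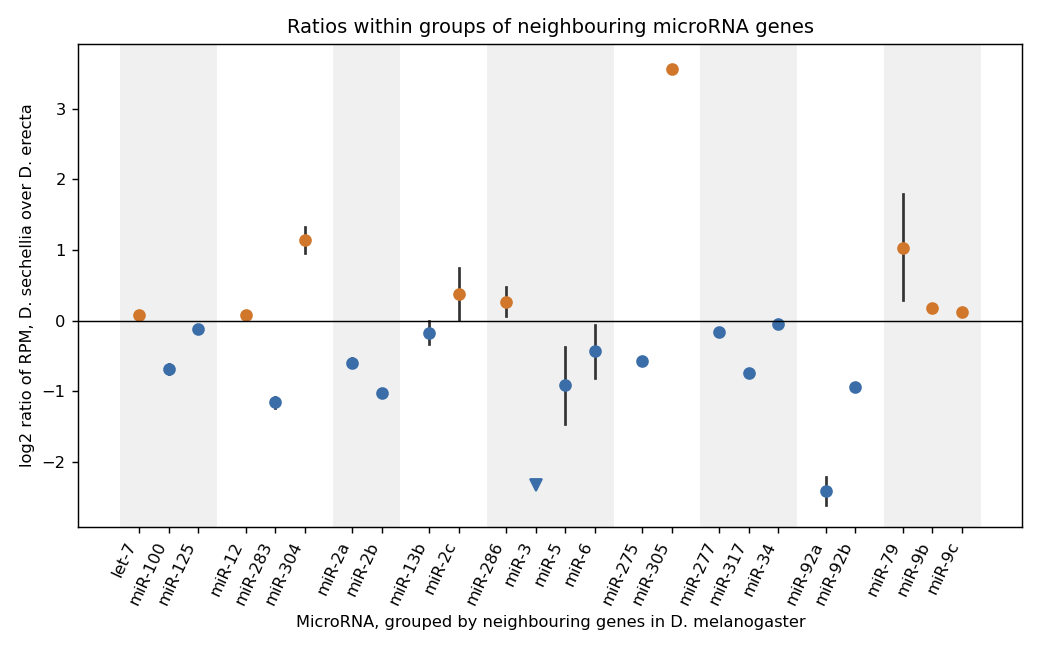
The log2 ratio of RPM in D. sechellia over D. erecta (vertical axis) for 24 microRNAs (horizontal axis) in 9 shaded or unshaded groups of genes that neighbour each other in D. melanogaster, with 95% intervals for counting error only (hidden where smaller than the point); orange is above and blue below 0, and the triangle for miR-3 is a bound. miR-305 lies at 3.57 and its neighbour miR-275 at -0.57, and miR-304 lies at 1.14 and miR-283 at -1.15.

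Families and other lists, drawn up by name and not from sequences, were compared as sums. The K box family, whose members miR-2, miR-6, miR-11, miR-13 and miR-308 include repressors of the cell death genes reaper, grim and sickle, had 1.89% of reads in D. erecta against 2.02% in D. sechellia. Of 7 compared members 1 was at least 2-fold higher (miR-308) and 1 at least 2-fold lower (miR-2b), against 16.4% and 20.0% of all 55, with a median log2 ratio of -0.17 against -0.23 over all 55. miR-11, encoded within the gene of the cell cycle factor E2f1, led the family with 37736 reads in D. erecta and 49600 reads in D. sechellia, a ratio of 1.31 (1.29 to 1.33). miR-2b had 12069 and 5976 reads and was 2.03-fold lower (1.97 to 2.09), and miR-2a had 5501 and 3671, 1.51-fold lower (1.44 to 1.57). The copies listed in D. sechellia were not equal, at 5318 and 5976 reads for miR-2b and from 3382 to 3671 for miR-2a. Only the highest count was kept, so both ratios are uncertain beyond their intervals.

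miR-13b had 659 and 590 reads, the latter the higher of 2 D. sechellia copies with 550 and 590, and miR-2c had 110 and 144. miR-6 had 145 reads in D. erecta and 108 reads in D. sechellia. No reads were listed for miR-13a in either library. With miR-10 and miR-263a left out of the sums, the ratios of miR-13b and miR-6 crossed 1. That of miR-2a crossed 1 when the counts of copies were summed, since D. sechellia lists miR-2a in 5 entries and D. erecta in 2.

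The miR-9 list (miR-9a, miR-9b, miR-9c, miR-79, miR-4 and miR-306) had 4.24% of reads in D. erecta against 3.79% in D. sechellia. The ratio of these sums was 0.893, and it lay between 0.995 and 1.22 under the 4 other settings, so it had no fixed direction. The epithelial list (miR-8, miR-31a, miR-31b, miR-184, miR-263a and miR-263b) had 43.5% of reads in D. erecta against 30.5% in D. sechellia. With both miR-263a and miR-10 left out of the sums and of the list, the ratio of D. sechellia over D. erecta was 1.24, against 0.700 with them. Of the 4 growth and germline stem cell microRNAs, bantam, miR-7, miR-14 and miR-278, only miR-278 was at least 2-fold apart, against 36.4% of all 55, and their median log2 ratio was -0.03, against -0.23. miR-7, known in D. melanogaster for repressing the transcription factor Yan, was scarce, with 185 reads in D. erecta and 159 reads in D. sechellia.

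Markers of muscle, neurons, ovary and early embryo were low in both libraries. The muscle microRNAs were represented by miR-1 at 101 RPM in D. erecta and 123 RPM in D. sechellia, and by miR-133 at 39.7 RPM and 4.02 RPM. As a sum they had 141 RPM and 127 RPM, while miR-1 exceeded miR-133 2.55-fold in D. erecta (2.06 to 3.18) and 30.8-fold in D. sechellia (17.4 to 60.1). The lower level of miR-133 in D. sechellia was therefore not seen in miR-1.

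The neural list was represented by miR-124 only, at 0.672 RPM in D. erecta and 5.69 RPM in D. sechellia. Of the 3 names on the ovary list only miR-318 was listed, with 233 and 246 reads, or 78.3 RPM and 82.3 RPM. The miR-309 cluster, which clears maternal transcripts in early embryos, summed to 206 RPM and 197 RPM. Most of that was miR-286, with 360 and 437 reads. miR-4 had 9 reads in D. erecta and 0 reads in D. sechellia, miR-5 had 84 and 45, and miR-309 itself had 0 in both. Their part in the differences of other microRNAs was not tested.

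Reads were absent for 6 shared names in both libraries (miR-13a, miR-280, miR-287, miR-288, miR-289 and miR-309), which allows a level of up to 1.01 RPM in D. erecta and 1.00 RPM in D. sechellia. A further 3 names, miR-4, miR-210 and miR-285, had under 10 reads in each library and were not compared. In the D. sechellia table miR-100 and miR-310 carry the same count, 2862 reads, so both values are uncertain. Mirtrons, made by splicing in place of Drosha, could not be described, since 0 of 15 names were listed.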

How the data were processed

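Small RNA was sequenced from testes of D. erecta and D. sechellia, with 1 wild-type library each; per the labels' protocols RNA of 18 to 30 nt was cut from a gel. The authors deposited a raw read count and an RPM value per microRNA and precursor. The submitters' processing notes name TopHat and give no version of it. For adapter trimming, mismatches, multi-mapping rules, genome builds and the microRNA annotation, nothing is stated in the labels or file headers.

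The deposited RPM divides each count by the sum of its column (recomputed within 0.00497), which counts microRNAs with several precursors again: 10.9% of that sum in D. erecta and 0.681% in D. sechellia. The 86 and 80 entries were therefore reduced to 78 and 72 microRNAs by keeping the highest count among copies, and RPM was recomputed. Numbered copies of miR-2a, miR-2b, miR-6 and miR-13b were taken as 1 microRNA, since D. erecta lists them so. Arm suffixes were kept in matching. No value column was left unmapped (0 columns).

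Ratios need at least 10 reads in 1 library. Intervals were computed with SciPy 1.17.1 in Python 3.11.15 and tested on simulated counts. Because the design holds 1 library per species, fold thresholds of 2 and 4 stand in for tests. Named microRNAs are the 12 most abundant of each library, those at least 4-fold apart, those listed in 1 library only with at least 100 reads, members of the lists, and the 6 closest to equality with at least 1000 reads in both; others are named to describe counts after their values were known. Members and lists were chosen with earlier results of these data known. Mature sequences were not used here.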

Additional observations from a re-analysis of the deposited data

How the results depend on the processing

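No paired analysis was possible because each species has 1 library and no test was made. The alternatives were the deposited RPM, median ratio scaling, RPM without the most abundant microRNA of either library (miR-263a and miR-10), summed copies, and other read minimums. The median log2 ratio of -0.23 became -0.0693 with the deposited RPM, -0.0653 with median ratio scaling, 0.22 without miR-263a and miR-10 and -0.0600 with summed copies. With summed copies, which count some reads again, the share of the most abundant microRNA fell from 27.1% to 24.1% in D. erecta. In D. sechellia it fell from 35.4% to 35.1%. The share of the 10 most abundant rose from 81.3% to 82.1% in D. erecta and fell from 84.7% to 84.2% in D. sechellia. The 2-fold count (20) ranged from 14 with a minimum of 100 reads to 22 with no minimum, and was 23 with arm suffixes removed, an alternative chosen after the data were seen. Across the 4 scaling and copy settings 16 of the 20 remained past 2-fold in the same direction (9 higher, 7 lower) and 8 of the 10 past 4-fold (5 higher, 3 lower); miR-10, among both, has a value in 3 of these settings only, and miR-3, not among the 8, is a bound. The 4-fold count ranged from 7 with a minimum of 100 reads to 12 with arm suffixes removed. Names matched without arm suffixes numbered 69 in place of 64. No microRNA at least 2-fold apart changed sign in these settings (0 microRNAs). The share of reads in the testis clusters has no value, since none was listed. Depth limits microRNAs with few reads, such as miR-308, miR-124 and miR-314, whose intervals are wide.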
